A study of Homo sapiens with 6 samples.

Results

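Axon guidance genes are the ligands and receptors that steer growing neurites: semaphorins with their plexin and neuropilin receptors, ephrins with the Eph receptor kinases, Slits with Robo receptors, and netrins with Dcc and the Unc5 receptors. They were taken by gene name from a table of transcript levels, and 69 of its 53492 genes matched, 35 of them ligands and 34 receptors. The measurement was RNA sequencing of poly(A)-selected RNA from 6 libraries, 3 from cells transfected with the vector pCS2-eGFP-CCNB1IP1 and 3 from cells transfected with pCS2-eGFP-N, which carries green fluorescent protein (GFP) alone. The labels give the cells of both groups as SH-SY5Y, a human neuroblastoma line, and do not state whether replicates were separate cultures; the p-values therefore refer to the variation among these libraries, part or all of which may be technical. CCNB1IP1 is an E3 ubiquitin ligase that binds cyclin B1 and acts in meiotic crossing over. The tables carry mouse gene names and identifiers, so every value below is that of a mouse gene although the labels give a human line, and the 2 groups are called by their labels.

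In a growth cone these cues act as repellents or attractants, some of them diffusing and some held on cell surfaces, and which of them a cell can answer depends on the receptors on its surface. Secreted class 3 semaphorins are bound by neuropilins, which have only a short intracellular tail and work with plexins, while the membrane-bound semaphorins of the other classes bind plexins directly. Slit proteins repel through Robo receptors, netrin-1 attracts through Dcc and repels through the Unc5 receptors, and ephrins signal between touching cells, the lipid-anchored ephrin-A proteins mainly to EphA receptors and the transmembrane ephrin-B proteins mainly to EphB receptors. Class 3 semaphorins and ephrins are known for guiding neural crest cells, from which sympathetic neurons arise.

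The mouse gene Ccnb1ip1 was near 0 in both groups, with 7.36e-08, 0.133 and 0.191 FPKM in the GFP-CCNB1IP1 libraries and 0.0334, 0.125 and 0.0698 FPKM in the GFP libraries, and the introduced sequence was not analysed here, so these values do not check the labels. FPKM is the number of fragments assigned to a gene scaled to transcript length and library size, so levels of different genes can be compared. The tables give no read totals, and depth relative to the average GFP library, estimated from the deposited bounds, lay between 0.742 and 1.06, with GFP-CCNB1IP1 replicate 2 the lowest. Of 10 markers of noradrenergic neuroblastoma cells, 9 averaged at least 1 FPKM, as did all 5 matched of 6 neuronal markers. The noradrenergic markers summed to 674 to 760 FPKM in the GFP-CCNB1IP1 libraries and 816 to 918 FPKM in the GFP libraries, with Chgb the most abundant. The neuronal markers summed to 238 to 254 FPKM in the GFP-CCNB1IP1 libraries and 241 to 259 FPKM in the GFP libraries. Marker sums of other cell types stayed under 5 FPKM in every library. Those of glia were at 4.49 to 4.68 FPKM in the GFP-CCNB1IP1 libraries and 3.49 to 3.99 FPKM in the GFP libraries, and those of mesenchyme at 2.23 to 3.07 FPKM in GFP-CCNB1IP1 and 1.73 to 3.38 FPKM in GFP (Col3a1 at 0). Endothelial ones were at 2.41 to 2.67 FPKM in GFP-CCNB1IP1 and 1.95 to 2.40 FPKM in GFP (Erg at 0), and epithelial ones at 0.1 to 0.199 FPKM in GFP-CCNB1IP1 and 0.210 to 0.376 FPKM in GFP (Epcam and Krt18 at 0). Leukocyte markers summed to 0.383 to 4.05 FPKM in the GFP-CCNB1IP1 libraries and 0.252 to 0.690 FPKM in the GFP libraries. The highest of these sums was that of GFP-CCNB1IP1 replicate 2, where Csf1r had 2.05 FPKM, so results are also given without that library below. How far any of these markers take part in the guidance results was not tested.

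Transcripts of some guidance genes were abundant and of others near 0. Of the 69, 39 averaged at least 1 FPKM over the 6 libraries, 23 at least 5 and 12 at least 10, while 22 averaged under 0.1 and 5 were listed at 0 in every library. Levels ran from 63.3 FPKM for Unc5b down to 1.15 FPKM for Ephb3 among the 39. The order along this range is only partly resolved, since for 31 of the 38 neighbouring pairs the ranges over the 6 libraries overlapped. Unc5b stood above Plxna3, Plxnb2 above Plxna1, Plxna1 above Sema4d and Sema4d above Nrp2 without overlap.

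**Figure D1:**
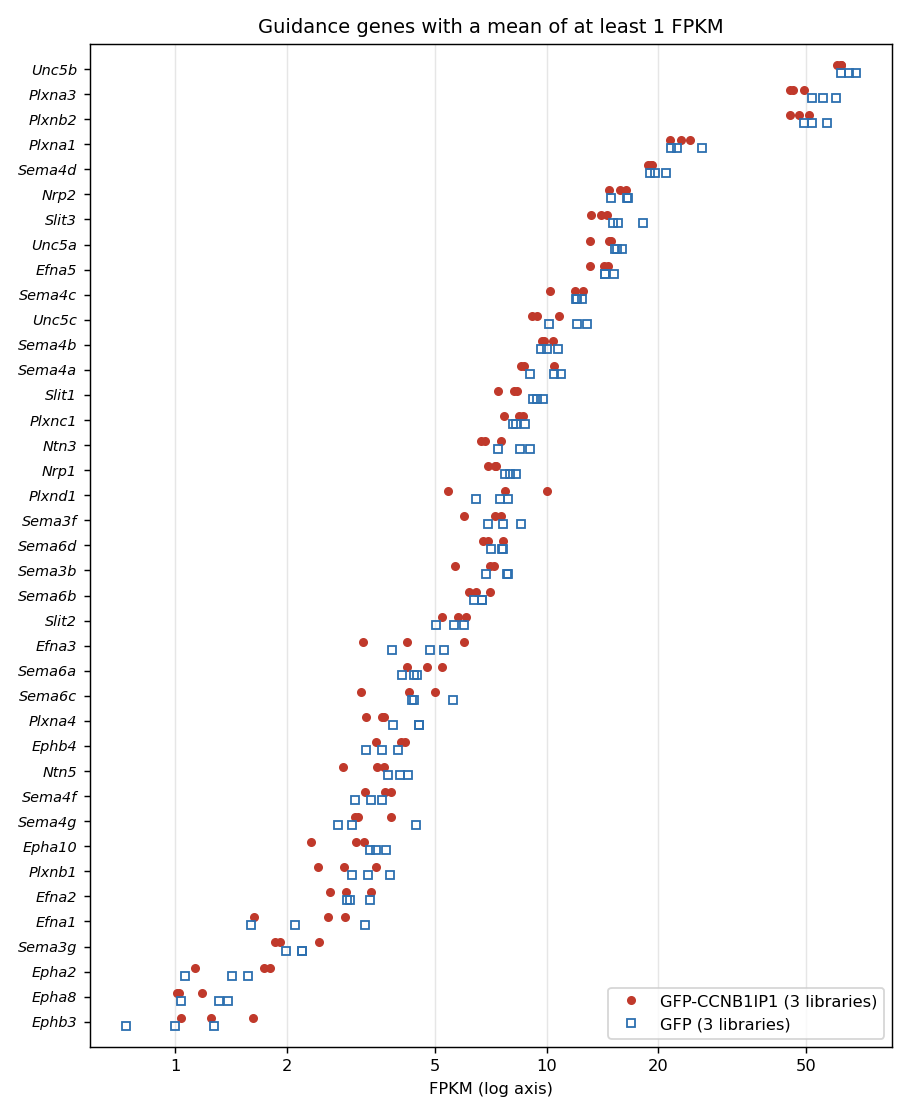
FPKM (log axis) of the 39 guidance genes with a mean of at least 1 FPKM, in order of their mean, with filled red circles for the 3 GFP-CCNB1IP1 libraries and open blue squares for the 3 GFP libraries. Unc5b, Plxna3 and Plxnb2 lead at 45.2 to 68.1 FPKM, and the symbols of both groups lie close together in most rows.

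Receptors of the plexin family were the most abundant group. Plxnb2, a receptor of class 4 semaphorins, had 47.96, 50.7 and 45.3 FPKM in the GFP-CCNB1IP1 libraries and 51.7, 57.00 and 49.4 FPKM in the GFP libraries. Plxna3, which with neuropilins receives class 3 semaphorins, had 45.95, 45.2 and 49.2 FPKM in the GFP-CCNB1IP1 libraries and 55.6, 51.8 and 60.1 FPKM in the GFP libraries. For Plxna3 every GFP-CCNB1IP1 library lay below every GFP library, and for Plxnb2 the groups overlapped. Plxna1, a receptor shared by class 3 and class 6 semaphorins, averaged 23.2 FPKM over the 6 libraries. Plxnc1, the receptor of Sema7a, averaged 8.33 FPKM, Plxnd1 7.52, Plxna4 3.91 and Plxnb1, the receptor of Sema4d, 3.14. Plxnb3 was at 0.0633 to 0.167 FPKM, and Plxna2 was above 0 in 1 library only, at 0.0196 FPKM. Plexin levels therefore differed among paralogs far more than between the groups of libraries.

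Both neuropilins were present. Nrp2, the neuropilin known for binding Sema3f, had 14.7, 16.4 and 15.7 FPKM in the GFP-CCNB1IP1 libraries and 16.4, 14.9 and 16.6 FPKM in the GFP libraries. Nrp1, the neuropilin known for binding Sema3a, had 7.32, 6.94 and 7.27 FPKM in the GFP-CCNB1IP1 libraries and 8.26, 7.75 and 7.97 FPKM in the GFP libraries. Nrp2 overlapped between the groups, and Nrp1 lay lower in all 3 GFP-CCNB1IP1 libraries.

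Semaphorins of class 4 had the largest summed level of the ligand families. Sema4d, a transmembrane semaphorin, had 18.7, 19.1 and 19.3 FPKM in the GFP-CCNB1IP1 libraries and 20.9, 18.97 and 19.6 FPKM in the GFP libraries. Sema4c had 12.6, 11.96 and 10.2 FPKM in the GFP-CCNB1IP1 libraries and 12.5, 12.03 and 12.1 FPKM in the GFP libraries. The groups overlapped for both. Sema4b averaged 10.1 FPKM, Sema4a 9.70, Sema4f 3.46 and Sema4g 3.36, so all 6 members of the class were above 1 FPKM. In class 6, also membrane-bound, all 4 members were above 1 FPKM too. Sema6d had 6.98, 6.76 and 7.61 FPKM in the GFP-CCNB1IP1 libraries and 7.61, 7.11 and 7.57 FPKM in the GFP libraries. Sema6b had 6.44, 6.20 and 7.06 FPKM in the GFP-CCNB1IP1 libraries and 6.69, 6.72 and 6.37 FPKM in the GFP libraries. The groups overlapped for each, while Sema6a averaged 4.53 FPKM and Sema6c 4.46.

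The secreted class 3 semaphorins were split. Sema3f had 7.28, 6 and 7.53 FPKM in the GFP-CCNB1IP1 libraries and 7.63, 8.56 and 6.96 FPKM in the GFP libraries. Sema3b had 7.24, 5.69 and 7.05 FPKM in the GFP-CCNB1IP1 libraries and 7.89, 7.83 and 6.88 FPKM in the GFP libraries. Both overlapped between the groups, and Sema3g averaged 2.10 FPKM. The other 4 members were under 0.1 FPKM in every library: Sema3a, the founding collapsin, reached at most 0.0227 FPKM, Sema3d 0.0362 and Sema3e 0.0838, and Sema3c was listed at 0 throughout. In class 5, Sema5b had 0, 0 and 0.0834 FPKM in the GFP-CCNB1IP1 libraries and 0.0879, 0 and 0 FPKM in the GFP libraries. Sema5a had 0.0342, 0 and 0.00396 FPKM in the GFP-CCNB1IP1 libraries and 0, 0 and 0.00433 FPKM in the GFP libraries. Both were thus listed at 0 in some libraries of each group. Sema7a, a lipid-anchored semaphorin, had 0.173, 0.320 and 0.176 FPKM in the GFP-CCNB1IP1 libraries and 0.170, 0.212 and 0.311 FPKM in the GFP libraries. These low values rest on few fragments, and their groups overlapped.

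In the netrin system the receptors of the Unc5 family were abundant, and Dcc, the attractive receptor, was listed at 0 in all 6 libraries. Neo1, the paralog of Dcc, lies outside the 69 genes and had 90.4 to 116 FPKM over the 6 libraries, with overlapping groups. Unc5b (ENSMUSG00000020099.9) was the highest of all 69 genes, with 60.4, 62.2 and 61.9 FPKM in the GFP-CCNB1IP1 libraries and 65.2, 62.1 and 68.1 FPKM in the GFP libraries. Unc5a had 14.9, 14.7 and 13.1 FPKM in the GFP-CCNB1IP1 libraries and 16.01, 15.5 and 15.3 FPKM in the GFP libraries. Unc5c had 9.44, 9.14 and 10.8 FPKM in the GFP-CCNB1IP1 libraries and 12.8, 10.2 and 12.1 FPKM in the GFP libraries. The groups overlapped for Unc5b and Unc5c, while for Unc5a all GFP-CCNB1IP1 values were the lower ones. Unc5d reached at most 0.0323 FPKM. Among the ligands Ntn1, the best known netrin, had 0.0955, 0.168 and 0.114 FPKM in the GFP-CCNB1IP1 libraries and 0.198, 0.215 and 0.149 FPKM in the GFP libraries, so it was under 0.3 FPKM in each library. The highest netrin was Ntn3, with 7.55, 6.65 and 6.84 FPKM in the GFP-CCNB1IP1 libraries and 9.01, 7.41 and 8.46 FPKM in the GFP libraries. It was followed by Ntn5, with 3.65, 2.84 and 3.50 FPKM in the GFP-CCNB1IP1 libraries and 4.04, 4.25 and 3.75 FPKM in the GFP libraries. Ntn3 overlapped between the groups by its lowest GFP library, and Ntn5 did not overlap. The locus of Ntn3 overlaps that of Tbc1d24, which averaged 6.14 FPKM, and with strand not stated reads of such a pair may not be separable. Ntn4, a basement membrane netrin, was above 0 in 1 library, at 0.0127 FPKM.

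For Slit and Robo the ligands were present and the receptors near 0. Slit3 had 13.2, 14.01 and 14.5 FPKM in the GFP-CCNB1IP1 libraries and 18.2, 15.1 and 15.6 FPKM in the GFP libraries. Slit1 had 7.40, 8.19 and 8.35 FPKM in the GFP-CCNB1IP1 libraries and 9.40, 9.19 and 9.80 FPKM in the GFP libraries. For both, every GFP-CCNB1IP1 value was below every GFP value, and Slit2 averaged 5.63 FPKM with overlapping groups. Robo2 had 0.152, 0.0204 and 0.0720 FPKM in the GFP-CCNB1IP1 libraries, against 0.0757, 0 and 0.566 FPKM in the GFP libraries, so it exceeded 0.2 FPKM only in GFP replicate 3. Robo3, which in commissural neurons controls midline crossing, had 0.0648, 0.0580 and 0.0524 FPKM in the GFP-CCNB1IP1 libraries and 0.123, 0.0365 and 0.132 FPKM in the GFP libraries. Robo1 was listed at 0 in 4 libraries and reached 0.196 FPKM, and Robo4, the endothelial member, was above 0 in 1 library, at 0.123 FPKM.

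Ephrins of the A type had a larger summed level than either receptor type, to which Efna5 contributed most. The ranges of Efna2 and Efna3 over the 6 libraries overlapped those of the highest receptors, Ephb4 and Epha10. That of Efna1 overlapped the range of Epha10 and lay below that of Ephb4. Efna5 led with 14.3, 14.6 and 13.1 FPKM in the GFP-CCNB1IP1 libraries and 15.2, 14.4 and 14.3 FPKM in the GFP libraries. Efna3 had 4.22, 3.20 and 6.001 FPKM in the GFP-CCNB1IP1 libraries and 3.83, 5.29 and 4.85 FPKM in the GFP libraries. The groups overlapped for both, and Efna3 had one of the widest spreads, with a coefficient of variation of 22.3% over the 6 libraries. Efna2 averaged 3.01 FPKM, Efna1 2.34 and Efna4 0.557. Ephrin-B ligands were low in both groups. Efnb2, the partner of Ephb4 in blood vessels, had 0.315, 0.400 and 0.201 FPKM in the GFP-CCNB1IP1 libraries and 0.305, 0.410 and 0.612 FPKM in the GFP libraries. Efnb3 had 0.384, 0.273 and 0.239 FPKM in the GFP-CCNB1IP1 libraries and 0.382, 0.372 and 0.184 FPKM in the GFP libraries, and Efnb1 was listed at 0.

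Among EphA receptors Epha10, which lacks kinase activity, was the highest, with 3.06, 2.32 and 3.23 FPKM in the GFP-CCNB1IP1 libraries and 3.47, 3.35 and 3.70 FPKM in the GFP libraries. Epha2 had 1.73, 1.13 and 1.81 FPKM in the GFP-CCNB1IP1 libraries and 1.06, 1.43 and 1.57 FPKM in the GFP libraries, and Epha8 averaged 1.16 FPKM. Every GFP-CCNB1IP1 value of Epha10 was below the GFP values, and Epha2 overlapped. Epha1 averaged 0.420 FPKM beside the overlapping gene Zyx at 113 FPKM, Epha7 averaged 0.108 FPKM, Epha4 reached at most 0.0322 FPKM and Epha3 0.0107, and Epha5 (the 1 member on several rows of the tables) and Epha6 were listed at 0. Of the EphB receptors, Ephb4 had 4.06, 4.15 and 3.47 FPKM in the GFP-CCNB1IP1 libraries and 3.27, 3.98 and 3.60 FPKM in the GFP libraries. Ephb3 had 1.25, 1.04 and 1.63 FPKM in the GFP-CCNB1IP1 libraries and 0.738, 1.27 and 1.002 FPKM in the GFP libraries. Both overlapped between the groups. Ephb2 reached at most 0.159 FPKM, Ephb1 0.0376 and Ephb6, the other member without kinase activity, 0.262.

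Summed over members, plexins reached 139 to 141 FPKM in the GFP-CCNB1IP1 libraries and 155 to 157 FPKM in the GFP libraries. Unc5 receptors summed to 84.8 to 86.0 FPKM in the GFP-CCNB1IP1 libraries and 87.8 to 95.4 FPKM in the GFP libraries. Class 4 semaphorins summed to 55.2 to 57.6 FPKM in GFP-CCNB1IP1 and 58.5 to 60.0 FPKM in GFP libraries. Slits summed to 25.8 to 29.0 FPKM in GFP-CCNB1IP1 and 29.9 to 33.6 FPKM in GFP libraries, and netrins to 9.65 to 11.3 FPKM in GFP-CCNB1IP1 and 11.9 to 13.3 FPKM in GFP libraries. In these 5 families the sums of the GFP-CCNB1IP1 libraries all lay below those of the GFP libraries. A like share for sums over other sets of genes was not computed, so this count is a description. Taken singly, the groups were apart for 2 of the 7 tested plexins, 1 of the 3 tested Unc5 receptors and 0 of the 6 class 4 semaphorins. They were apart for 2 of the 3 Slits and 1 of the 2 tested netrins. The sums overlapped for neuropilins, class 3 and class 6 semaphorins, ephrin-A, EphA and EphB. A sum is weighted to its most abundant members, and in a bulk sample fewer cells of a kind and less RNA per cell cannot be told apart.

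**Figure D2:**
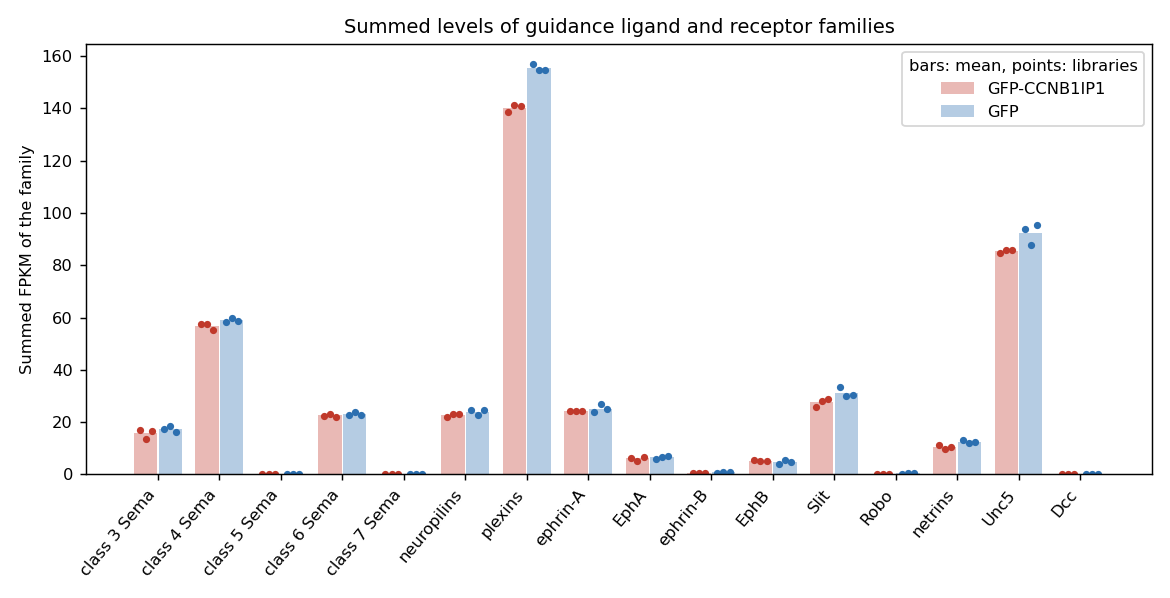
Summed FPKM of each of the 16 guidance families, as the mean (bar) and the single libraries (points), with GFP-CCNB1IP1 in red to the left of GFP in blue. Plexins lead with means of 140 FPKM in the GFP-CCNB1IP1 libraries and 155 FPKM in the GFP libraries, followed by Unc5 receptors with 85.5 FPKM in GFP-CCNB1IP1 and 92.4 FPKM in GFP, while Robo, Dcc, ephrin-B and class 5 and 7 semaphorins lie at or near 0.

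The comparison of the groups asked whether guidance genes changed with the vector named in the labels. No guidance gene passed: of the 39 tested, 0 had an adjusted p under 0.05 (limma on log2(FPKM + 1), Benjamini-Hochberg over 13231 genes), where 1 gene of all those tested did, or 0.00756%. At an unadjusted p under 0.05 there were 5 guidance genes, or 12.8%, all with a negative log2 fold change, against 11.4% of all genes tested and 5.77% with p under 0.05 and a negative value (5.59% with a positive one). The log2 fold change was below 0 for 31 of the 39 (79.5%) and above 0 for 8, where it was below 0 for 48.6% of all genes. The median over the 39 was -0.070, a ratio of 0.952 between FPKM + 1 values, and the median over all genes was 0.0037. Every member's log2 fold change lay between -0.25 and 0.20. The other 30 members averaged under 1 FPKM and were not tested.

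The groups did not overlap for 8 of the 39 (20.5%), all lower in the GFP-CCNB1IP1 libraries, where 17.6% of all genes did not overlap and 8.9% did so with the GFP-CCNB1IP1 libraries lower (8.7% with them higher). These 8 were Plxna3, Slit1, Slit3, Plxna4, Ntn5, Nrp1, Epha10 and Unc5a. This count depends on the libraries kept. Without GFP-CCNB1IP1 replicate 2 it was 16 of the 39, beside 29.0% of all genes. It was 15 of the 39 without GFP replicate 2, beside 31.8%, and 14 without GFP-CCNB1IP1 replicate 3, beside 26.6%. It was 11 without GFP replicate 3, beside 25.6%, and 11 without GFP-CCNB1IP1 replicate 1, beside 27.1%. It was 9 without GFP replicate 1, beside 27.2%. The share of all genes was thus also higher each time, and why the member count moved was not tested. Without GFP-CCNB1IP1 replicate 2 or without GFP replicate 2, 26 of the 39 had a log2 fold change below 0. The shares of all genes below 0 were then 46.2% and 47.6%, and the member medians were -0.089 and -0.076. No guidance gene passed without either of these libraries. The noradrenergic marker sums given above also lay lower in all GFP-CCNB1IP1 libraries, and their part in these counts was not tested.

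Plxna3 (ENSMUSG00000031398.14, chromosome X, 73372672 to 73388295, in coordinates of a mouse build that the sources used here do not name) had the smallest p-value of the 39. It averaged 46.8 ± 2.12 FPKM in the GFP-CCNB1IP1 libraries and 55.8 ± 4.14 FPKM in the GFP libraries (SD, n = 3 each), a log2 fold change of -0.25 (standard error 0.0658; adjusted p = 0.272, limma). Slit1 (ENSMUSG00000025020.12, chromosome 19, 41588696 to 41732104) averaged 7.98 ± 0.513 FPKM in the GFP-CCNB1IP1 libraries and 9.47 ± 0.309 FPKM in the GFP libraries (SD, n = 3 each), with a log2 fold change of -0.22 (standard error 0.0727; adjusted p = 0.326, limma). Slit3 (ENSMUSG00000056427.11, chromosome 11, 35012051 to 35599334) averaged 13.9 ± 0.668 FPKM in the GFP-CCNB1IP1 libraries and 16.3 ± 1.67 FPKM in the GFP libraries (SD, n = 3 each), with -0.21 (standard error 0.0822; adjusted p = 0.401, limma) on the same scale. Without GFP replicate 1, its highest library, the Slit3 value was -0.13. The 3 smallest p-values thus belonged to a plexin and 2 Slit ligands, and none of them passed.

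The next was Plxna4 (ENSMUSG00000029765.13, chromosome 6, 32121203 to 32565127), a plexin that receives class 3 and class 6 semaphorins, with 3.61, 3.28 and 3.66 FPKM in the GFP-CCNB1IP1 libraries, against 4.53, 3.87 and 4.55 FPKM in the GFP libraries and a log2 fold change of -0.23 (standard error 0.0942; adjusted p = 0.410, limma). Ntn3 (ENSMUSG00000117406.2, chromosome 17, 24422822 to 24428505) gave a log2 fold change of -0.21 (standard error 0.0899; adjusted p = 0.433, limma), and Unc5c, a receptor that repels on netrin binding, had -0.23 (standard error 0.101; adjusted p = 0.448, limma). Below these in the order of p came Ntn5 at -0.22 (standard error 0.105; adjusted p = 0.489, limma) and Nrp1 at -0.14 (standard error 0.0678; adjusted p = 0.496, limma). Epha10 had a log2 fold change of -0.23 (standard error 0.116; adjusted p = 0.516, limma) and Plxnb2 of -0.13 (standard error 0.0684; adjusted p = 0.518, limma). GFP-CCNB1IP1 replicate 2 was the lowest library for both Ntn5 and Epha10, and without it their log2 fold changes were -0.13 and -0.12. Without GFP replicate 2 that of Plxnb2 was -0.074. With a pseudocount of 5 the values of Plxna4, Ntn5 and Epha10 were -0.13, -0.12 and -0.11, and with a pseudocount of 0.1 they were -0.29, -0.27 and -0.29. With the pseudocount of 1 used here, all 10 were within a log2 difference of 0.25 of the GFP libraries. That scale understates the change of low genes such as Epha10.

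**Figure D3:**
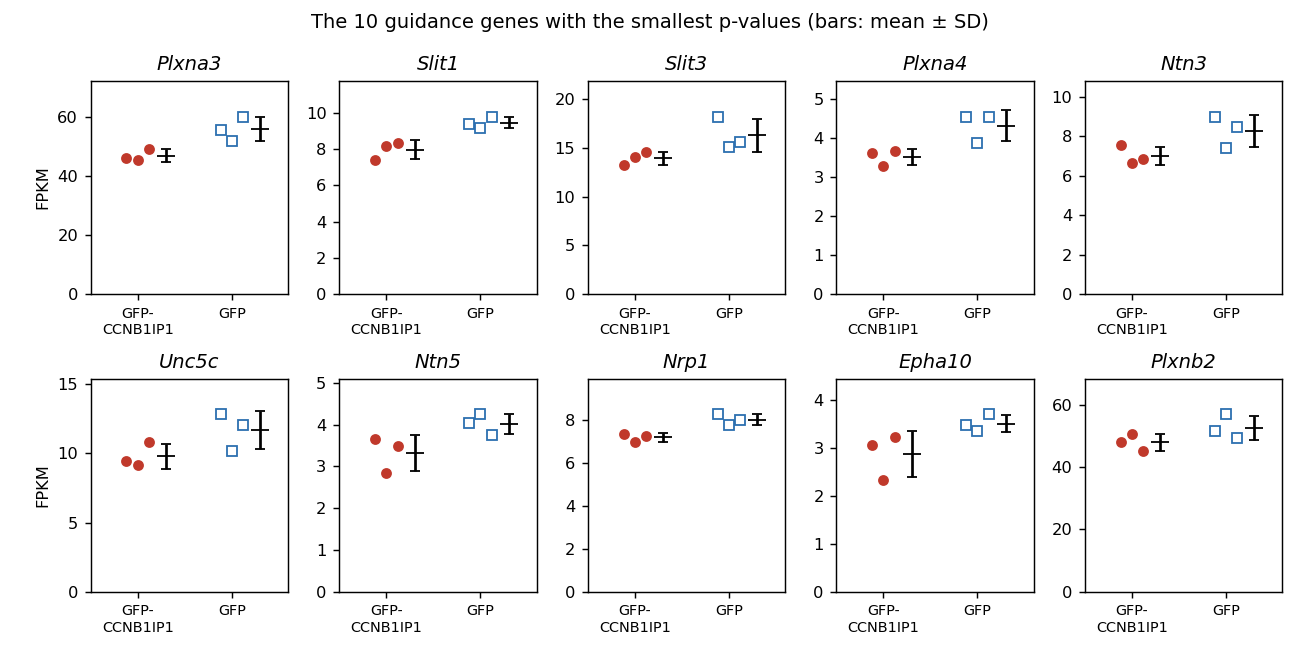
FPKM of the 10 guidance genes with the smallest p-values, with filled red circles for the 3 GFP-CCNB1IP1 libraries left of open blue squares for the 3 GFP libraries, and black bars for the mean ± SD. The circles lie below all squares for Plxna3, Slit1, Slit3, Plxna4, Ntn5, Nrp1 and Epha10, and the groups overlap for Ntn3, Unc5c and Plxnb2.

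By family, 6 of the 7 tested plexins had a log2 fold change below 0, as did both neuropilins, all 3 tested Unc5 receptors, both tested netrins, 2 of 3 Slits, all 3 tested class 3 semaphorins, 5 of 6 class 4 semaphorins, 3 of 4 class 6 semaphorins, 3 of 4 tested ephrin-A ligands and 2 of 3 tested EphA receptors. Both tested EphB receptors were above 0, Ephb3 at 0.20 and Ephb4 at 0.084. Rescaling to TPM, median-of-ratios scaling and quantile normalization left these counts of signs as they were. Single libraries moved some of them: without GFP replicate 2 the ephrin-A count was 1 of 4, without GFP-CCNB1IP1 replicate 2 or 3 that of class 4 semaphorins was 3 of 6, and without GFP-CCNB1IP1 replicate 1 that of neuropilins was 1 of 2. For class 6 semaphorins it was 2 of 4 without GFP replicate 1 or 2 or without GFP-CCNB1IP1 replicate 1 or 2, and for class 3 it was 2 of 3 without GFP-CCNB1IP1 replicate 2 or 3. The counts of Unc5, netrin, EphA and EphB members were the same whichever library was left out. The other members above 0 were Epha2 at 0.11, Sema6a at 0.11, Sema4f at 0.077, Plxnd1 at 0.044, Efna1 at 0.030 and Slit2 at 0.029. Each of these 8 apart from Ephb3 and Sema6a was smaller than its standard error, and Plxnd1 had 10.03 FPKM in GFP-CCNB1IP1 replicate 2 against 5.43 to 7.89 FPKM in the other libraries. The median was -0.11 over the 17 tested receptors and -0.059 over the 22 tested ligands. That difference was not tested.

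**Figure D4:**
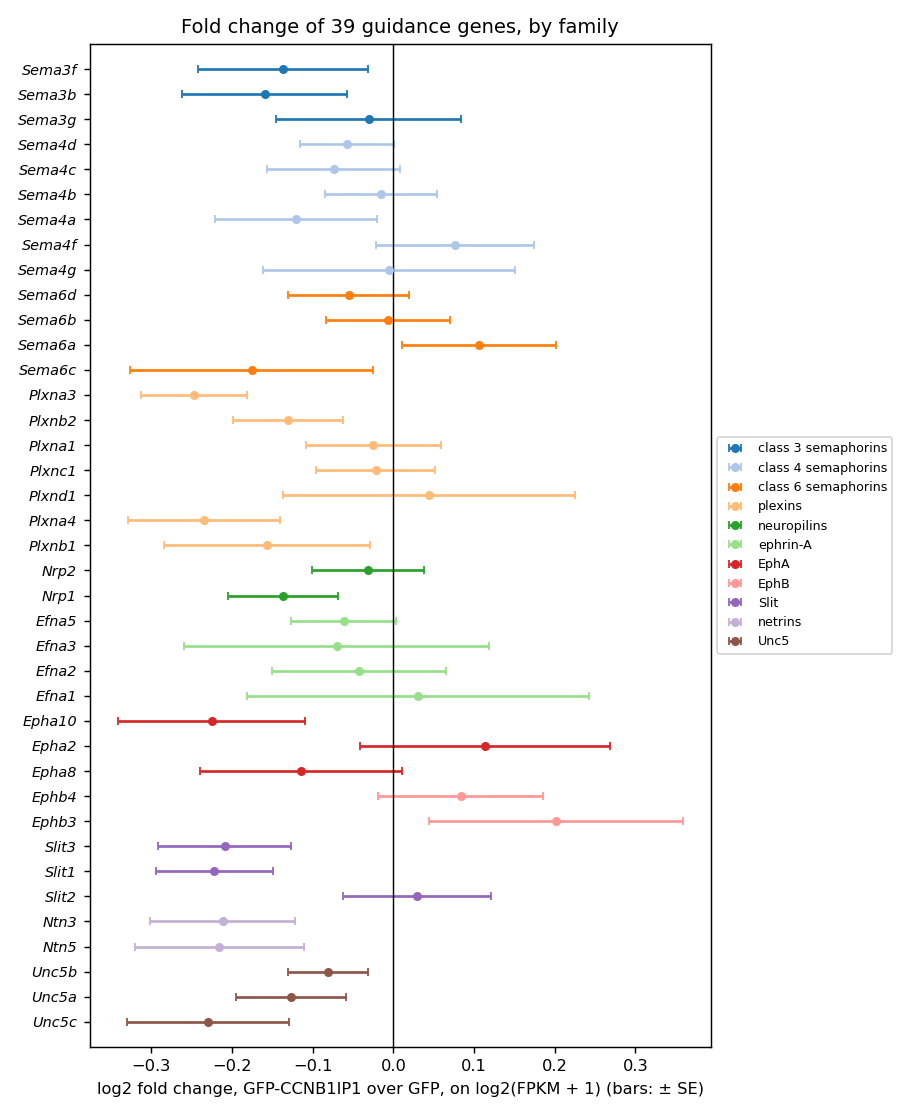
Log2 fold change of GFP-CCNB1IP1 over GFP on log2(FPKM + 1), with bars of ± 1 standard error, for the 39 tested guidance genes, coloured by family. Points lie between -0.25 and 0.20, 31 of them left of 0, and both EphB receptors lie right of it.

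Genes that act with these ligands and receptors were read from the same fit. Of 58 cues, receptors and coreceptors outside the families above, listed under 59 names, all were matched, 32 were tested and 0 passed. With no adjustment, 6 were lower and 0 higher at p under 0.05 (18.8%, beside 11.4% of all genes in either direction), the groups did not overlap for 12, 11 lower and 1 higher (37.5%, beside 17.6% of all genes), and the median log2 fold change was -0.070. L1cam, an adhesion protein that joins Nrp1 in the Sema3a receptor, had 106, 114 and 105 FPKM in the GFP-CCNB1IP1 libraries, against 123, 127 and 137 FPKM in the GFP libraries and a log2 fold change of -0.25 (standard error 0.0563; adjusted p = 0.230, limma). Itga1, an integrin subunit, had 3.91, 3.34 and 3.31 FPKM in the GFP-CCNB1IP1 libraries, against 4.65, 4.43 and 5.47 FPKM in the GFP libraries and -0.37 (standard error 0.104; adjusted p = 0.285, limma). Islr2, also called Linx, had 42.95, 42.4 and 43.5 FPKM in the GFP-CCNB1IP1 libraries, against 53.8, 44.7 and 55.1 FPKM in the GFP libraries and -0.24 (standard error 0.0797; adjusted p = 0.328, limma). In all 3 genes the GFP-CCNB1IP1 values were the lower ones, without overlap.

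Of 70 intracellular genes of guidance signalling, 64 were tested and 0 passed. At an unadjusted p under 0.05, 4 were higher and 2 lower (9.38%, below the 11.4% of all genes), the groups did not overlap for 12, 6 in each direction (18.8%, near the 17.6% of all genes), and the median log2 fold change was 0.031. Nck2, an adaptor that links receptors to the actin cytoskeleton, had 20.7, 20.7 and 21.1 FPKM in the GFP-CCNB1IP1 libraries, against 18.7, 18.1 and 18.8 FPKM in the GFP libraries and a log2 fold change of 0.16 (standard error 0.0519; adjusted p = 0.324, limma). Evl, an actin regulator of the Ena/VASP family, had 28.3, 32.3 and 30.2 FPKM in the GFP-CCNB1IP1 libraries, against 27.6, 26.4 and 24.2 FPKM in the GFP libraries and 0.21 (standard error 0.0716; adjusted p = 0.352, limma). Cdc42, a small GTPase of filopodia, had 167, 157 and 163 FPKM in the GFP-CCNB1IP1 libraries, against 149, 153 and 141 FPKM in the GFP libraries and 0.13 (standard error 0.0484; adjusted p = 0.367, limma). These 3 were higher in all GFP-CCNB1IP1 libraries, and none passed.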

How the data were processed

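Each library had 1 deposited table of FPKM, with confidence bounds and a status for every gene, per the file headers. HISAT2 and Cufflinks appear without versions in the submitters' processing notes, and neither build nor annotation is given in the sources used here. FPKM of rows with the same identifier were summed, and no member had a status other than OK. Genes with a mean of at least 1 FPKM were tested on log2(FPKM + 1) in all 6 libraries by limma 3.58.1 (R 4.3.3), fitting a mean-variance trend without a block, and p-values were adjusted by Benjamini-Hochberg over all 13231 genes. The fit was tested on simulated data with larger changes than that of any member. That test does not show how well changes as small as those of the members are found. An exact permutation test of 3 against 3 libraries cannot go below p = 0.1, so none was run. Read totals were not given, so no counting interval or detection floor is printed. Implied fragments are (FPKM / standard error) squared, reading the upper bound as 2 standard errors above. The table covers mouse genes and the reference sequences at hand were human, so no sequence is printed. Coordinates start from 1. A marker gene of the lists is not reported here.

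The members, the lists of other guidance genes and the markers were chosen with earlier results of these data known. Per-library values are given for the 10 members with the smallest p-values and for the 2 highest of each family; Ntn1 and the other members were named after their values were seen. Alternatives were other pseudocounts (0.1 and 5), other filters (none, or a mean of at least 5 FPKM), median-of-ratios scaling, TPM, quantile normalization, a replicate block, no trend, and each library left out.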

Additional observations from a re-analysis of the deposited data

How the results depend on the processing

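No guidance gene, and none of the signalling and coreceptor genes, passed under any of the 15 alternatives run. The 10 members with the smallest p-values kept a negative log2 fold change in all 147 values that these alternatives gave, with adjusted p no lower than 0.227. These 10 were picked by p-value from the same libraries, and the filters, the block and the trend leave a fold change as it was. Their kept sign was therefore largely set in advance and lends no support. The count of all genes that passed, 1 as reported, was 0 when the filter was dropped, without the trend and with a pseudocount of 5, and 0 to 4 when a library was left out. With the replicate number as a block it was also 0, and no guidance gene passed. The libraries share only a number, and the labels do not say whether same-numbered libraries were paired. Deviations of same-numbered libraries from their group means correlated at -0.011 to 0.023 across genes, and 2 of the 6 correlated best with their own number. These values show no shared effect but cannot settle whether there was pairing. The member median, -0.070 as reported, was -0.048 with a pseudocount of 5 and -0.031 with no filter, which adds members near 0, and lay between -0.089 and -0.066 when a library was left out. Members whose groups did not overlap, 8 as reported, numbered 5 of 23 tested with a mean of at least 5 FPKM, beside 18.3% of all genes. When a library was left out they numbered 9 to 16 of the 39, beside 25.6% to 31.8% of all genes. Between 26 and 33 of the 39 had a log2 fold change below 0 when a library was left out, beside 46.2% to 51.8% of all genes. That count was added after the data were seen. Depth limits the low members: of those tested, 1 rested on under 10 implied fragments in a library, Ephb3, with 9.87.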

Other observations

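Guidance genes with little or no signal had the longer loci by their median. The locus spanned a median of 172 kb for the 30 members under 1 FPKM and 202 kb for the 22 under 0.1 FPKM, against 28.6 kb for the 39 members at 1 FPKM or more. Dcc, with a span of 1100 kb, was the longest of the low members, and Slit3, with 587 kb, was the longest of those at 1 FPKM or more. Over all genes of the tables the order was the other way round, with 2.01 kb for the 40261 genes under 1 FPKM and 18.9 kb for the 13231 at 1 FPKM or more. Those under 1 FPKM include microRNAs and other short entries, with loci from 0.01 kb. The 2 sets of genes are therefore unlike, and whether that accounts for the 2 orders was not tested. Span here is the whole locus, introns included, and these values are descriptions without a test.

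Neighbouring members did not always have similar levels. Efna1, Efna3 and Efna4 lie in a row on chromosome 3, with gaps of 32.8 and 10.4 kb, and averaged 2.34, 4.56 and 0.557 FPKM. Sema3b and Sema3f lie 72.3 kb apart on chromosome 9 and averaged 7.10 and 7.33 FPKM. Plxnb3 and Plxna3 lie 557 kb apart on chromosome X and averaged 0.0942 and 51.3 FPKM.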
